A study of Homo sapiens with 52 samples.

Results

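The genes described here are 48 members of the ATF4 pathway and of the unfolded protein response, taken by name from a fixed list among the 27043 genes of the deposited tables. They fall into an ATF4 amino acid arm of 32 genes and an endoplasmic reticulum (ER) chaperone arm of 16 genes. All 48 were present in each of the 52 expression tables. A filter on low values (at least 1 TPM, a transcript abundance scaled for length and library size, in at least 2 of the 52 samples) left 31 and 16 of them for testing, among 16359 genes tested in all. The member that did not pass was ALDH1L2, a mitochondrial folate enzyme, which did not exceed 0.51 TPM in any library.

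ATF4 is a transcription factor whose messenger RNA is translated more when kinases phosphorylate the initiation factor eIF2α, either because amino acids are short or because unfolded protein collects in the ER. It then switches on amino acid synthesis, amino acid import and tRNA charging, together with regulators such as DDIT3 (CHOP) and ATF3. The ER arm is driven mainly by the sensors ATF6 and IRE1 (ERN1), the latter acting through the splicing of XBP1, and supplies chaperones, disulfide isomerases and the machinery that discards misfolded protein. Gene-level RNA values do not record eIF2α phosphorylation, ATF4 protein or XBP1 splicing.

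RNA was sequenced from a fusion-positive rhabdomyosarcoma (FP-RMS) cell line that carries PAX3-FOXO1, a childhood muscle-lineage tumour line grown in DMEM with serum. In the screen, 20 compounds aimed mostly at chromatin proteins were each given for 6 h at a high and a low dose, with 1 library per dose, and 4 libraries received the solvent DMSO alone, 2 at 0.2% and 2 at 0.1%. The compounds were Bromosporin, Cpd50, EZ-005, GSKJ4, GSKLSD1, LAQ824, LSD519, LSD690, MC1568, Merck60, OJI-1, PFI-2, PFI-3, SGC0946, SGC-CBP30, Trametinib, UNC0638, UNC-1215, UNC1999 and WT161. The high and low doses were 10 and 1 µM, or 5 and 0.5 µM for Cpd50, GSKJ4 and LAQ824. A further 8 libraries held N1302 (1 µM, 6 h) with 1 DMSO library, and entinostat (1 µM) with DMSO after 1, 6 and 24 h, 1 library per condition. Every drug was dissolved in DMSO, so solvent is shared by all groups. The titles of the screen samples name the line RH41 whereas their cell-line label says RH4, and screen and RH4-titled libraries were therefore not tested against each other. The authors averaged 2 replicate experiments and compared them with 4 DMSO experiments, and nothing states that libraries came from separate cultures. P-values therefore measure the spread between these libraries. This spread may be technical, and where 2 doses are fitted together it also holds dose response. In bulk RNA, fewer cells of a type and less RNA per cell cannot be told apart.

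Libraries held between 5737939 and 41415071 reads, as recovered from the TPM values, and 12604 to 14997 genes reached 1 TPM. The muscle markers MYOD1, MYOG, DES and CHRNA1 lay between 413 and 749 TPM in the screen's DMSO libraries and MYH3 between 4.46 and 5.54 TPM, while PTPRC, PECAM1, EPCAM and ALB, which mark blood, endothelial, epithelial and liver cells, did not exceed 2.99 TPM in any library. The 28 libraries of flow cell C5JW5ACXX, among them WT161, Bromosporin, UNC0638, Trametinib, EZ-005, UNC1999 and SGC-CBP30, included no DMSO library. Values within that flow cell are therefore set against the median of its other 13 compounds at the same dose level. The library of UNC0638 at 10 µM held 6849916 reads, and 2352 of the 16359 tested genes were at least 2-fold lower in it than in the matching DMSO. With Bromosporin at 10 µM that number was 2989.

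The sequences ahead of the members' start sites were searched for the letters by which the 2 arms are usually told apart. RefSeq promoter sequences of build GRCh38.p14, 250 bases before to 50 bases after a start site, matched 43 of the 48 members. Those of ALDH1L2, NUPR1, PSPH, SHMT2 and SLC7A11 were not matched. The C/EBP-ATF response element, which ATF4 binds with its partners, was searched as TGATGNAA on both strands, and the ER stress response element, bound by ATF6 with NF-Y, as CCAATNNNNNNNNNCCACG. Its compact second form was searched as ATTGGNCCACG. None of the 3 patterns contains another. The first was present in 9 of 27 ATF4 arm genes and 1 of 16 ER arm genes, against 4.46% of 27305 genes with a promoter in the table. The second was present in 6 of 16 ER arm genes (CALR, CRELD2, HSP90B1, HSPA5, PDIA6 and XBP1) and 0 of 27 ATF4 arm genes, against 0.0916% of all. The third was present in 3 of 16 ER arm genes (HERPUD1, HYOU1 and SDF2L1) and 0 of 27, against 0.0696%. A match is a description of letters, not of binding.

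The promoters below are printed because the results turn on these genes: CHAC1 and ASNS as ATF4 targets, HSPA5, CRELD2 and SDF2L1 as ER genes, and HERPUD1 because its window holds elements of both kinds. Capitals mark the matches, read 5′ to 3′ on the strand of the gene, and an element on the opposite strand appears as its reverse complement.
CHAC1 (chr15:40953221-40953520, plus strand): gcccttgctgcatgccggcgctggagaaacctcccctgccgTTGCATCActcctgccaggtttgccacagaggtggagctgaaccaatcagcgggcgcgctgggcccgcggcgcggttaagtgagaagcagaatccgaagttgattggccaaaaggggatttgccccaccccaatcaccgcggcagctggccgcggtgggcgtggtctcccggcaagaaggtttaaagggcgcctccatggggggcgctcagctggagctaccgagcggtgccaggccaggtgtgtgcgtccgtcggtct
ASNS (chr7:97872359-97872658, minus strand): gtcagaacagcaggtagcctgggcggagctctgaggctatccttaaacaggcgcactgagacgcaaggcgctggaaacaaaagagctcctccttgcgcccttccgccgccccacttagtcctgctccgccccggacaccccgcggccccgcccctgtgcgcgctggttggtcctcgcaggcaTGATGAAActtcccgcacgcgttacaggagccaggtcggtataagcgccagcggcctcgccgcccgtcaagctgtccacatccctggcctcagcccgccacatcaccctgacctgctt
HERPUD1 (chr16:56931892-56932191, plus strand): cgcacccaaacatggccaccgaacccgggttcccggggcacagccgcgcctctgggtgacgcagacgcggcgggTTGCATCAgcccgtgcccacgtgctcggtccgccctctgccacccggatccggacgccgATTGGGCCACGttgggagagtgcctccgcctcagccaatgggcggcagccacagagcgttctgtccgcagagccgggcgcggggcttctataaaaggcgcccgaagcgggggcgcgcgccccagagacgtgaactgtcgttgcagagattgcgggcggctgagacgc
HSPA5 (chr9:125241294-125241593, minus strand): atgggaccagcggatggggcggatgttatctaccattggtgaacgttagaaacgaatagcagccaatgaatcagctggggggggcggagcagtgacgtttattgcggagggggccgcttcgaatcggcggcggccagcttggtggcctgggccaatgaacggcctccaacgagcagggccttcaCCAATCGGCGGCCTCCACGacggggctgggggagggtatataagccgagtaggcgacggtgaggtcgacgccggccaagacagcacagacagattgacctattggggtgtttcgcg
CRELD2 (chr22:49918384-49918683, plus strand): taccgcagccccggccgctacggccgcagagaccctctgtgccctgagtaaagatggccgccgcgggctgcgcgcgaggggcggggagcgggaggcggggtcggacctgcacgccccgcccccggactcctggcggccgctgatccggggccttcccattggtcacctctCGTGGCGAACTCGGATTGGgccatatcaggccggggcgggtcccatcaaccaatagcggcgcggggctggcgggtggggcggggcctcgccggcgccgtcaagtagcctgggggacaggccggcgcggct
SDF2L1 (chr22:21642052-21642351, plus strand): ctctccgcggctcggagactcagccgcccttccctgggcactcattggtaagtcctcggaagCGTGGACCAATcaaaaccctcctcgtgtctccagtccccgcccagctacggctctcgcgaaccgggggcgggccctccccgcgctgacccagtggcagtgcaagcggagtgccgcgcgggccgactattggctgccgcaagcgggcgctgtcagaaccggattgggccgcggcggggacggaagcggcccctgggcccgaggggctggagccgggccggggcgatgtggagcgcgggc

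Levels in DMSO were compared first, because each screen value is relative to them. ATF4 (hg19 chromosome 22, 39916564 to 39918691) was at 428 and 393 TPM in 0.2% DMSO and at 431 and 395 TPM in 0.1% DMSO. HSPA5, the main ER chaperone BiP (chromosome 9, 127997127 to 128003666), was at 911, 932, 922 and 935 TPM in the same order. TPM is scaled per transcript length, so levels can be set side by side across genes: the ER arm ran from 22.3 ± 1.21 TPM for the co-chaperone DNAJB9 to 1465 ± 8.72 TPM for HSP90B1 (SD, n = 2). Among the tested ATF4 arm genes the lowest was NUPR1, a small stress-induced chromatin protein, at 1.92 ± 0.263 TPM, and the highest was ATF4 itself at 412 ± 1.48 TPM. The 2 libraries of a concentration agreed within sampling noise once flow cell was allowed for (variance of the interaction 0.995 times counting noise over 10378 genes). They were therefore counted as 1 sample in each mean ± SD. The variance between flow cells was 1.89 times counting noise. Each SD leaves it out, because both concentrations average over flow cell. The single DMSO libraries spread more widely, from 1426 to 1502 TPM for HSP90B1. The limma test of 0.2% against 0.1% DMSO called 0 of 47 members and 0% of all genes by adjusted p. At an unadjusted p below 0.05 the numbers were 7 members and 1548 genes.

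Each compound's 2 doses were fitted together against the 4 DMSO libraries (limma, all 44 screen libraries in 1 fit), and a gene was called at a Benjamini-Hochberg adjusted p below 0.05 with at least a 2-fold change on the log2(TPM + 1) scale, which understates changes of low genes. Most of the spread in this fit is the difference between the 2 doses of a compound, so its SE also holds dose response. Among 940 tests of members, 29 were called up and 11 down, where 1.92% of the tests of all genes with the 20 compounds were called up and 1.62% down. The ATF4 arm held 22 up and 10 down of 620 tests, and the ER arm 7 up and 1 down of 320. The 7 compounds with a called member were LAQ824, MC1568, UNC0638, Bromosporin, Cpd50, WT161 and Trametinib. The other 13 compounds had 0 of 47 members called in this fit, where 0.407% of all their gene tests were called in either direction.

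The mean change of each arm in single libraries differed between compounds. Over the 4 DMSO libraries the arm mean of log2(TPM + 1) had an SD of 0.0237 for the ATF4 arm and 0.0240 for the ER arm. Across the high-dose libraries the mean difference from the matching DMSO ran from -0.13 to 0.91 for the ATF4 arm and from -0.30 to 0.74 for the ER arm. GSKJ4 at 5 µM had the highest ATF4 arm mean, at 0.91, beside an ER arm mean of -0.11. LAQ824 at 5 µM, WT161 at 10 µM and Bromosporin at 10 µM had the opposite combination, with ER arm means of 0.68, 0.74 and 0.65 and ATF4 arm means of 0.01, 0.12 and -0.13. In MC1568 both arms were higher, at 0.62 and 0.69, where the median over all tested genes was 0.29. Over the other libraries named here that median lay between -0.19 and 0.03. Arm means are descriptions of a chosen list and carry no test.

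**Figure D1:**
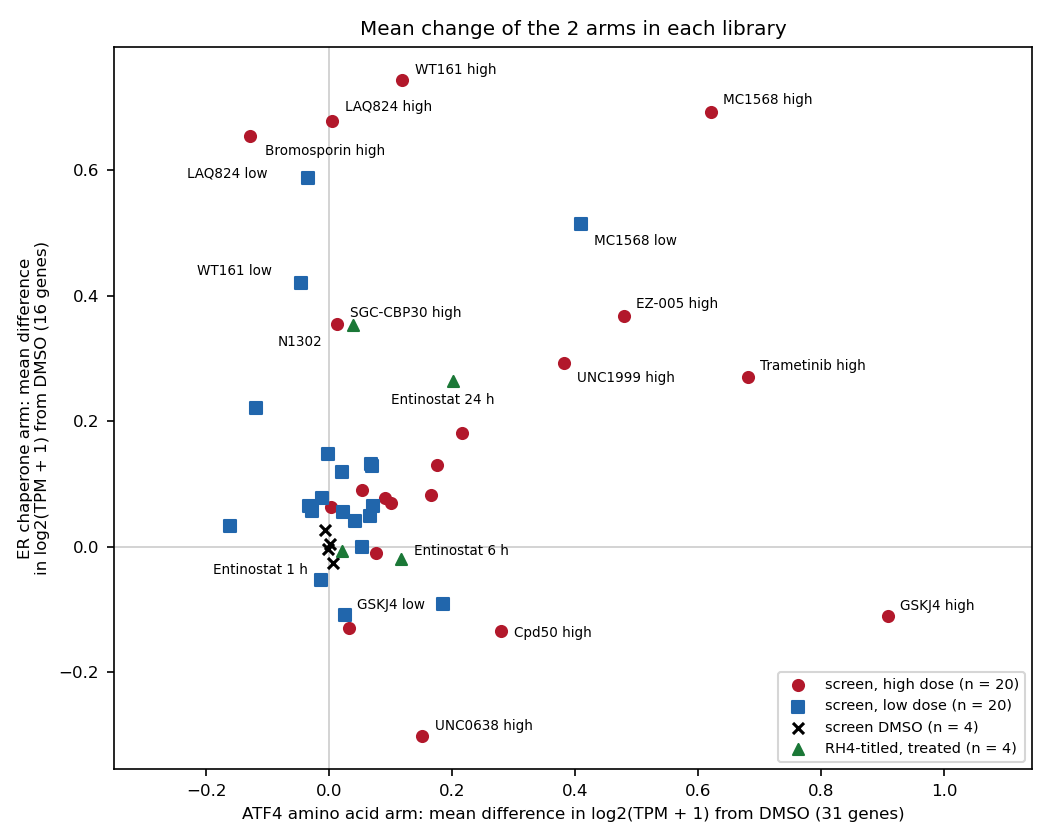
Mean difference in log2(TPM + 1) from the matching DMSO over the 31 tested genes of the ATF4 amino acid arm (x axis) and the 16 genes of the ER chaperone arm (y axis), 1 point per library. Circles are high doses, squares low doses, crosses the 4 screen DMSO libraries and triangles the N1302 and entinostat libraries. GSKJ4 at its high dose lies at 0.91 on the x axis and -0.11 on the y axis, while LAQ824, WT161 and Bromosporin at their high doses lie near 0 on the x axis and between 0.65 and 0.74 on the y axis.

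**Figure D2:**
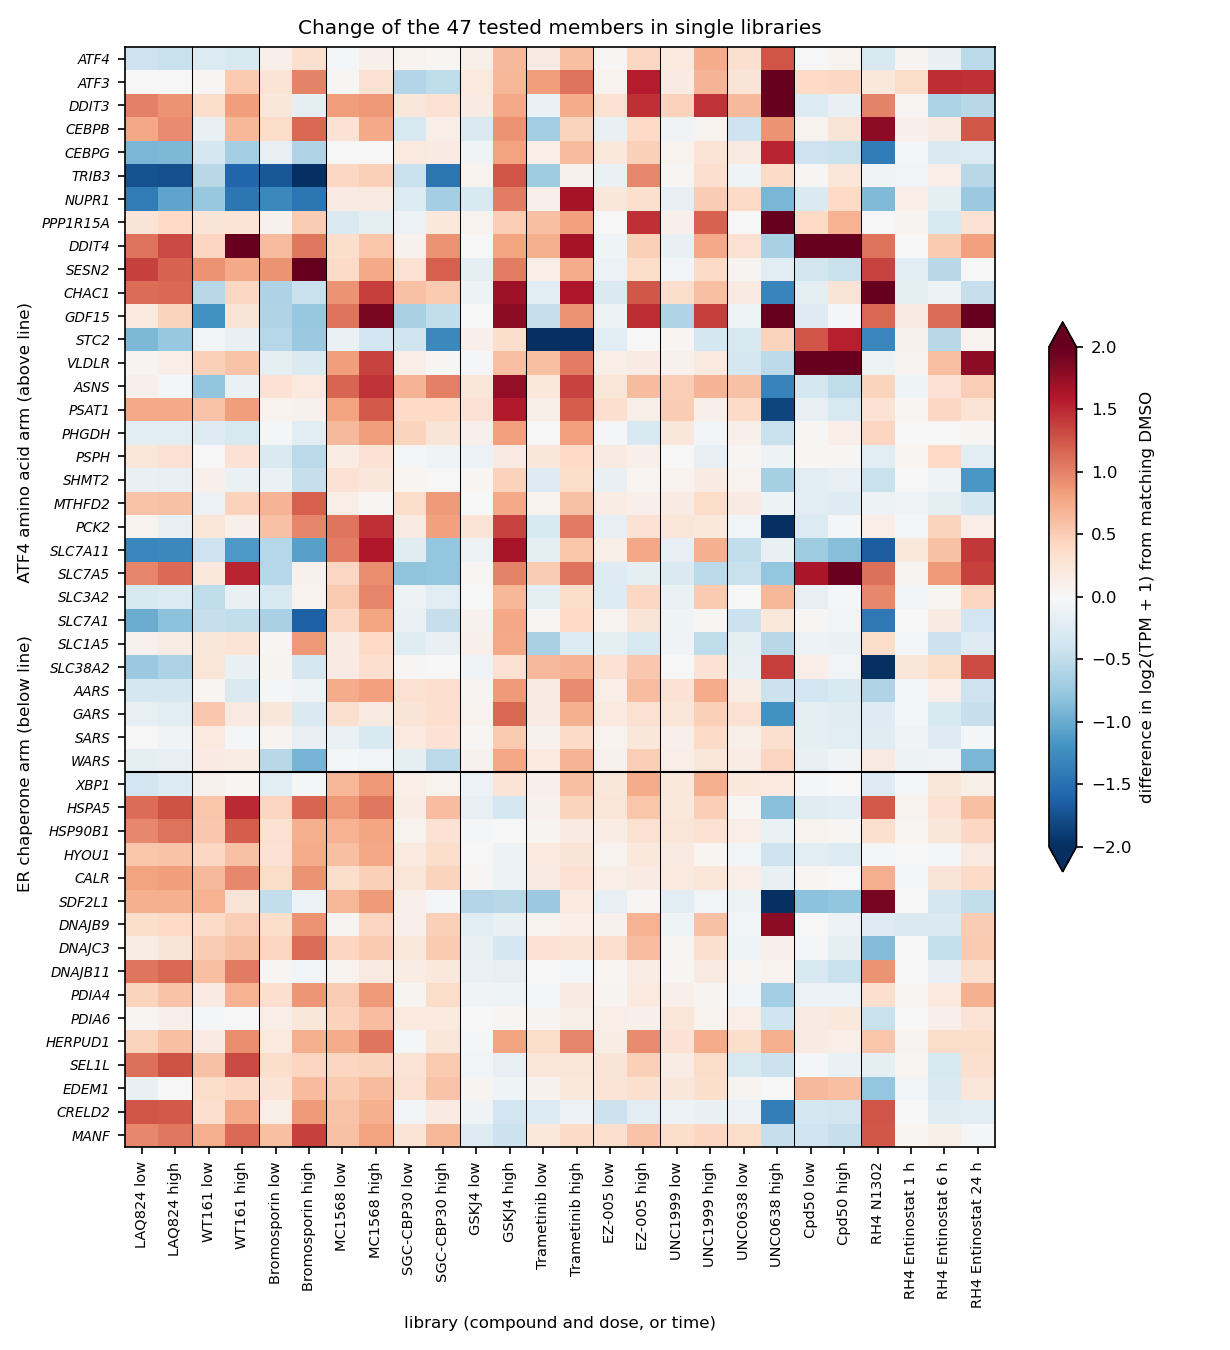
Difference in log2(TPM + 1) from the matching DMSO for each of the 47 tested members (rows, ATF4 arm above the line, ER arm below) in libraries of 11 screen compounds and of N1302 and entinostat (columns). Red is higher and blue lower than DMSO, and the colour scale ends at 2 in either direction. All 31 ATF4 arm genes are red under GSKJ4 at its high dose, where 12 of the 16 ER arm genes are blue.

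GSKJ4, an inhibitor of the demethylases JMJD3 and UTX, gave the most even picture across the ATF4 arm. At 5 µM 31 of 31 ATF4 arm genes were above DMSO, against 4 of 16 ER arm genes, and at 0.5 µM the arm mean was 0.03. ASNS, which makes asparagine (chromosome 7, 97481429 to 97501854), was at 38.8, 39.4, 37.3 and 36.5 TPM in DMSO, 43.8 TPM at 0.5 µM and 135 TPM at 5 µM. PSAT1, a serine synthesis enzyme, was between 53.6 and 55.3 TPM in DMSO, 67.4 TPM at 0.5 µM and 164 TPM at 5 µM. In both genes the 5 µM library lay far above the 4 DMSO libraries, and the 0.5 µM library lay above them by a smaller margin.

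Targets outside amino acid synthesis also lay above DMSO at 5 µM. CHAC1, which degrades glutathione (chromosome 15, 41245636 to 41248717), was between 4.07 and 4.65 TPM in DMSO, 4.08 TPM at 0.5 µM of GSKJ4 and 15.6 TPM at 5 µM. TRIB3, a pseudokinase that dampens the response, was between 33.4 and 38.0 TPM in DMSO, 38.2 TPM at 0.5 µM and 83.5 TPM at 5 µM. SLC7A11, the cystine importer, was between 2.86 and 3.17 TPM in DMSO, 2.83 TPM at 0.5 µM and 11.3 TPM at 5 µM. All 3 genes lay outside the DMSO range at 5 µM and within or next to it at 0.5 µM. The regulators ATF4, DDIT3 and ATF3 differed less than these 3 genes. ATF4 was at 645 TPM at 5 µM, DDIT3 at 75.0 TPM against 39.7 to 44.3 TPM in DMSO, and ATF3 at 52.2 TPM against 31.8 to 34.8 TPM.

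In the fit over both doses 0 of 47 members were called for GSKJ4, and the adjusted p of ASNS was 0.828. In the single 5 µM library, described without a test, 10 of 31 ATF4 arm genes and 0 of 16 ER arm genes were at least 2-fold higher than in the matching DMSO, where 1.13% of all genes were. Their differences in log2(TPM + 1) were 1.79 for GDF15, 1.76 for ASNS, 1.69 for CHAC1, 1.65 for SLC7A11, 1.58 for PSAT1, 1.35 for PCK2, 1.26 for TRIB3, 1.15 for GARS, 1.03 for SESN2 and 1.02 for NUPR1. PCK2 is the mitochondrial PEP carboxykinase, GARS charges tRNA with glycine, SESN2 restrains mTORC1 when leucine is short and GDF15 is a secreted stress hormone. HERPUD1, an ER degradation component, was at 112 TPM against 62.2 to 64.7 TPM in DMSO, whereas HSPA5 was at 720 TPM, XBP1 at 138 TPM and DNAJB9 at 20.9 TPM. HERPUD1 thus lay above its DMSO range while HSPA5 lay below it. GSKJ4 shared its flow cell with DMSO, and within it the arm means were 0.91 and -0.11, as large as against both DMSO libraries.

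Trametinib, a MEK1/2 inhibitor, had the ATF4 arm mean next below GSKJ4, and here the ER arm also lay above DMSO. At 10 µM 29 of 31 ATF4 arm genes and 14 of 16 ER arm genes were above DMSO, with means of 0.68 and 0.27. Within the flow cell the means were 0.56 and 0.12. ASNS was at 102 TPM at 10 µM and 43.0 TPM at 1 µM, PSAT1 at 127 and 59.3 TPM, and CHAC1 at 14.8 and 3.72 TPM. For CHAC1 the high dose lay above and the low dose below all 4 DMSO libraries. ATF4 was at 624 TPM, DDIT3 at 74.1 TPM, ATF3 at 70.1 TPM and HERPUD1 at 126 TPM at 10 µM, and TRIB3 at 36.3 TPM lay inside its DMSO range. HSPA5, XBP1 and DNAJB9 were at 1258, 174 and 25.4 TPM.

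For Trametinib, limma on both doses called DDIT4 up and STC2 down. DDIT4, an mTORC1 inhibitor also known as REDD1, was at 123 TPM at 10 µM and 67.1 TPM at 1 µM against 37.4 to 41.0 TPM in DMSO (log2 change 1.19 ± 0.36 SE, adjusted p = 0.0466). STC2, a secreted glycoprotein, was at 37.7 and 28.9 TPM against 180, 180, 201 and 202 TPM (log2 change -2.49 ± 0.20 SE, adjusted p = 1.47e-08). Both doses lay outside the DMSO range for both genes. The shares of all genes called were 0.721% up and 0.831% down. The DDIT4 call was lost on leaving out any 1 of the 4 DMSO libraries, and with median-ratio scaling the split was 0 up and 1 down. In the single 10 µM library, without a test, 9 of 31 ATF4 arm genes were at least 2-fold higher and 1 lower than in DMSO, against 1.72% and 1.74% of all genes, and 0 of 16 ER arm genes.

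The 2 compounds with labels naming EZH2 and EZH1 had both arms above DMSO at 10 µM. With EZ-005 27 of 31 ATF4 arm and 15 of 16 ER arm genes were above DMSO, with means of 0.48 and 0.37. With UNC1999 the numbers were 26 and 14, with means of 0.38 and 0.29. Without a test, 5 of 31 ATF4 arm genes were at least 2-fold higher in the single 10 µM library of EZ-005, where 1.32% of all genes were: ATF3, DDIT3, PPP1R15A, GDF15 and CHAC1. In that of UNC1999 3 of 31 were, where 1.66% of all genes were: DDIT3, GDF15 and PPP1R15A. DDIT3 was at 123 TPM with EZ-005 and 122 TPM with UNC1999 at 10 µM, and at 49.3 and 54.9 TPM at 1 µM. PPP1R15A (GADD34), which directs eIF2α dephosphorylation, was at 189 and 154 TPM at 10 µM and at 72.0 and 77.2 TPM at 1 µM, against 67.8 to 73.7 TPM in DMSO. Both genes were above DMSO with both compounds at the high dose, while ASNS reached 61.3 and 63.1 TPM and PSAT1 58.5 and 58.0 TPM. ATF4 was at 548 and 687 TPM at 10 µM, ATF3 at 99.3 and 52.9 TPM, TRIB3 at 68.0 and 43.5 TPM and CHAC1 at 11.2 and 6.82 TPM. In the ER arm HSPA5 was at 1356 and 1295 TPM at 10 µM, XBP1 at 193 and 190 TPM, HERPUD1 at 122 and 106 TPM and DNAJB9 at 38.0 and 35 TPM, all above DMSO. In the fit over both doses neither compound had a called member. Within the flow cell DDIT3 differed by 1.15 and 1.14 and PPP1R15A by 1.19 and 0.90 on the log2 scale, and the arm means were 0.35 and 0.23 with EZ-005 and 0.25 and 0.15 with UNC1999.

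UNC0638, whose label gives the target KMT1C, split the ATF4 arm at 10 µM: the regulators PPP1R15A, ATF3, DDIT3 and ATF4 lay at their highest, and the enzymes ASNS, PSAT1 and PCK2 at their lowest, of the 40 treated screen libraries. PPP1R15A (chromosome 19, 49375649 to 49379319) was at 68.0, 67.8, 73.7 and 70.2 TPM in DMSO, 72.2 TPM at 1 µM and 896 TPM at 10 µM. ATF3 was at 41.8 TPM at 1 µM and 218 TPM at 10 µM, DDIT3 at 62.7 and 178 TPM, and ATF4 at 514 and 981 TPM. All 4 genes were higher at 10 µM than at 1 µM. ASNS by contrast was at 56.2 TPM at 1 µM and 14.8 TPM at 10 µM, PSAT1 at 71.5 and 14.4 TPM, and PCK2 at 11.1 and 0.781 TPM. CHAC1 was at 5.12 and 1.05 TPM, the latter resting on 4 reads, and TRIB3 at 34.4 and 44.9 TPM.

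The ER arm was split in the same UNC0638 library. SDF2L1, a chaperone that works with BiP, was at 43.7, 49.0, 42.2 and 50.1 TPM in DMSO, 42.9 TPM at 1 µM and 5.64 TPM at 10 µM, the last resting on 12 reads. HSPA5 was at 944 and 517 TPM, CRELD2, a secreted ER stress protein, at 62.3 and 26.7 TPM, and DNAJB9 at 20.6 and 82.0 TPM. DNAJB9, which assists HSPA5, thus lay at its highest of the treated screen libraries where HSPA5 lay at its lowest. HERPUD1 was at 81.8 and 106 TPM and XBP1 at 133 and 132 TPM.

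With both UNC0638 doses in the fit, limma called 4 of 31 ATF4 arm genes up and 1 down, and 0 of 16 ER arm genes up and 1 down, where 1.30% and 3.10% of all genes were called. The genes called up were PPP1R15A (log2 change 1.85 ± 0.49 SE, adjusted p = 0.00778), ATF3 (1.48 ± 0.36, 0.00478), GDF15 (1.42 ± 0.51, 0.0421) and DDIT3 (1.32 ± 0.34, 0.00646). Those called down were SDF2L1 (-1.47 ± 0.37, 0.00572) and PCK2 (-1.46 ± 0.42, 0.0140). Without the fold threshold 7 and 2 ATF4 arm genes and 1 and 3 ER arm genes passed, against 6.33% of all genes up and 18.9% down. In the single 10 µM library, without a test, 7 of 31 ATF4 arm genes were at least 2-fold higher and 5 lower, and 1 of 16 ER arm genes higher and 2 lower, where 7.26% and 14.4% of all genes were. Fitting the 2 UNC0638 and 4 DMSO libraries only called 0 members, and the GDF15 call was lost on leaving out any 1 DMSO library. Within the flow cell 1 ATF4 arm gene was called up, 2 down and 1 ER arm gene down. The part that depth and the number of lower genes in the 10 µM library had in these values was not tested.

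**Figure D3:**
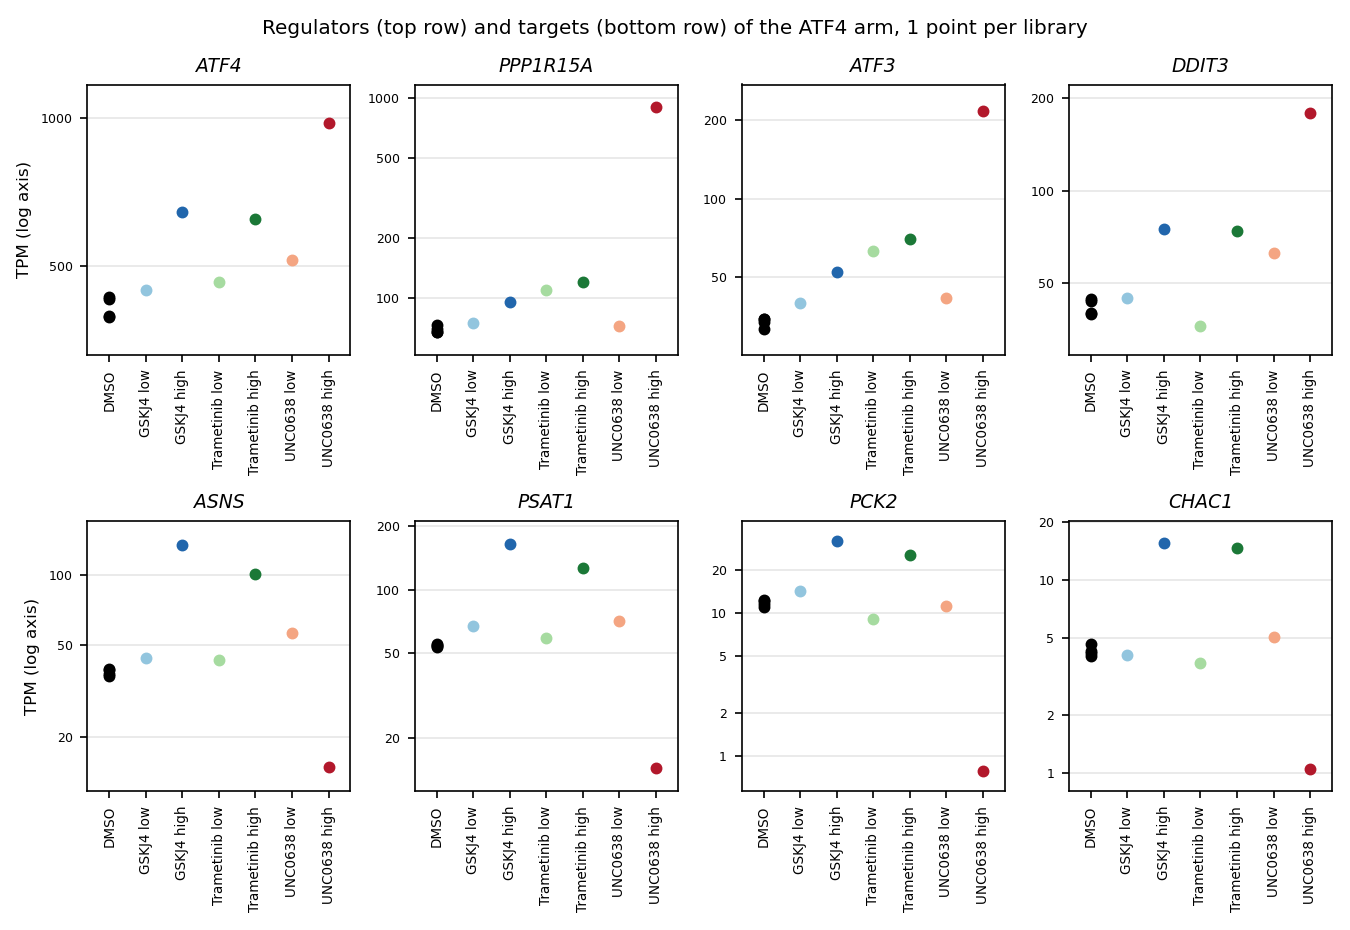
TPM on a log axis, 1 point per library, for 4 regulators (top row) and 4 target genes (bottom row) of the ATF4 arm in the 4 DMSO libraries and in GSKJ4, Trametinib and UNC0638 at low and high dose. With GSKJ4 and Trametinib at the high dose both rows lie above DMSO. With UNC0638 at 10 µM these 4 regulators lie above it (PPP1R15A at 896 TPM) and these 4 targets below it (ASNS at 14.8 TPM). Other regulators and targets of the arm do not all follow this division.

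LAQ824, an HDAC inhibitor, had a larger share of the ER arm called up than of all genes, while its ATF4 arm counts lay near those shares. Limma called 6 of 16 ER arm genes up and 0 down, and 4 of 31 ATF4 arm genes up and 3 down, where 14% of all genes were called up and 11.7% down. Without the fold threshold 10 of 16 ER arm genes rose and 1 fell, and 8 of 31 ATF4 arm genes went each way, against 32.4% and 28.1% of all genes. The median log2 change was 0.64 over the ER arm, -0.03 over the ATF4 arm and 0.06 over all genes tested. Not every HDAC inhibitor of the screen had a higher ER arm. With Merck60, aimed at HDAC1 and HDAC2, its mean was -0.13 at 10 µM and -0.05 at 1 µM. Within the flow cell these means were -0.32 and -0.15. With OJI-1, aimed at HDAC8, they were 0.09 and 0.03 against DMSO and -0.08 and -0.05 within the flow cell.

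Among chaperones, HSPA5 was at 2217 TPM at 5 µM and 2016 TPM at 0.5 µM, above all 4 DMSO libraries, which reached 935 TPM (log2 change 1.19 ± 0.20 SE, adjusted p = 1.35e-05). HSP90B1 (GRP94) was at 3106 and 2855 TPM against 1426 to 1502 TPM (1.02 ± 0.12, 5.28e-08). CRELD2 was at 169 and 162 TPM against 62.6 to 72.6 TPM (1.24 ± 0.21, 9.53e-06). All 3 genes differed from DMSO at both doses to a similar extent. The other called genes were SEL1L, the adaptor of the HRD1 ligase (1.19), the co-chaperone DNAJB11 (1.11) and MANF, a secreted ER protein (1.00). HERPUD1 rose by less, to 96.2 and 87.5 TPM (0.52 ± 0.21, 0.0366). XBP1 fell from 111 to 118 TPM in DMSO to 94.5 and 87.7 TPM (log2 change -0.33 ± 0.13, 0.0374), and DNAJB9 at 30.9 and 27.5 TPM did not pass the test (0.37 ± 0.30, 0.293).

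In the ATF4 arm TRIB3 was at 9.40 TPM at 5 µM and 10.3 TPM at 0.5 µM of LAQ824, below all 4 DMSO libraries (log2 change -1.75 ± 0.36 SE, adjusted p = 0.000159). SLC7A11 was at 0.614 and 0.647 TPM against 2.86 to 3.17 TPM (-1.30 ± 0.31, 0.000800), and NUPR1 at 0.314 and 0.178 TPM. SESN2 was at 32.3 and 36.0 TPM against 13.1 to 14.4 TPM (1.28 ± 0.29, 0.000534). DDIT4, CHAC1 and SLC7A5, the leucine importer, were the other genes called up, with log2 changes of 1.20, 1.13 and 1.05. SLC7A5 has near-identical pseudogene copies, so its reads may be split among them. ATF4 fell to 302 and 309 TPM (-0.43 ± 0.18, 0.0378) and DDIT3 rose to 83.3 and 81.0 TPM (0.95 ± 0.34, 0.0168), while ATF3 at 33.0 and 34.8 TPM and ASNS at 38.5 and 39.8 TPM lay in or next to their DMSO ranges. The muscle factor MYOD1 was at 71.0 TPM in the 5 µM library, and the part of a wider loss of muscle transcripts in these values was not tested.

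WT161, labelled for HDAC6, and Bromosporin, labelled for bromodomains, raised ER arm genes at the high dose more than at the low dose. With WT161 1 of 16 ER arm genes passed both thresholds, HSPA5, at 2594 TPM at 10 µM and 1358 TPM at 1 µM (log2 change 1.02 ± 0.20 SE, adjusted p = 0.000225). By adjusted p alone 12 of 16 rose and 0 fell, against 23.0% and 18.8% of all genes. With Bromosporin 0 of 16 passed both thresholds and 9 rose by adjusted p alone with 0 falling, against 16.5% and 29.5%. The median log2 change of the ER arm was 0.55 and 0.50, where that of all genes was 0.03 and -0.12. HSPA5 with Bromosporin was at 2061 TPM at 10 µM and 1252 TPM at 1 µM (0.80 ± 0.20, 0.00224), and MANF at 486 and 280 TPM against 183 to 189 TPM in DMSO (0.99, 5.96e-05). Both lay above DMSO at each dose. The muscle factors MYOD1 and MYOG were at 106 and 70.8 TPM with WT161 and 198 and 81.7 TPM with Bromosporin at 10 µM, against 640 to 648 and 572 to 587 TPM in DMSO, and their part in these values was not tested.

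By adjusted p alone 3 of 31 ATF4 arm genes rose and 7 fell with Bromosporin, against 16.5% and 29.5% of all genes. With WT161 4 rose and 3 fell, against 23.0% and 18.8%. These counts lay below the shares of all genes. TRIB3 with Bromosporin was at 2.65 TPM at 10 µM and 10.6 TPM at 1 µM (log2 change -2.48 ± 0.36 SE, adjusted p = 8.93e-06), its lowest level of the screen, and with WT161 at 10.7 and 24.6 TPM (-1.07 ± 0.36, 0.0187). NUPR1 was listed at 0 in the 10 µM library of each compound and was called down in both. SLC7A1, an arginine and lysine transporter, was at 32.0 and 67.6 TPM with Bromosporin against 101 to 107 TPM (-1.14 ± 0.19, 4.77e-05). SESN2 was called up with Bromosporin, at 60.5 and 25.6 TPM (1.48 ± 0.29, 0.000236), and DDIT4 with WT161, at 231 and 55.4 TPM (1.50 ± 0.36, 0.00144). The ATF4 arm thus had 1 gene called up and 3 down with Bromosporin, against 4.21% and 9.18% of all genes, and 1 up and 2 down with WT161, against 5.48% and 5.20%.

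Most other regulators and targets did not pass the test with these compounds. ATF4 was at 511 and 445 TPM with Bromosporin and 328 and 342 TPM with WT161, and passed the test with neither. ATF3 (65.6 and 42.1 TPM, 47.2 and 35.3 TPM), DDIT3 (38.4 and 47.0 TPM, 79.8 and 50.9 TPM), CHAC1 (2.76 and 2.56 TPM, 5.85 and 2.73 TPM), ASNS (44.9 and 45.3 TPM, 35.7 and 21.1 TPM), XBP1 (111 and 98.8 TPM, 116 and 121 TPM) and DNAJB9 (44 and 27.5 TPM, 33.0 and 28.2 TPM) did not pass either. HERPUD1 passed by adjusted p with WT161, at 122 and 72.2 TPM (log2 change 0.55, adjusted p = 0.0387), and was at 105 and 73.2 TPM with Bromosporin (0.46, adjusted p = 0.0807). With median-ratio scaling, which shifted all genes of the Bromosporin 10 µM library by 0.24, Bromosporin had 3 members up and 3 down and WT161 1 up and 2 down. Within the flow cell 3 Bromosporin calls down and 1 up were made, and for WT161 2 ATF4 arm genes were called up and 0 ER arm genes, with ER arm means of 0.60 and 0.34 at 10 and 1 µM. SGC-CBP30, aimed at the CREBBP/EP300 bromodomain, had 3 of 16 ER arm genes up by adjusted p alone, against 3.73% of all genes. Its ER arm mean at 10 µM was 0.36, and 0.21 within the flow cell. With SGC-CBP30 TRIB3 was at 11.8 and 26.5 TPM at 10 and 1 µM, ATF3 at 22.7 TPM at both, ASNS at 79.8 and 60.1 TPM and HSPA5 at 1419 and 1033 TPM. ATF4 (419 and 433 TPM), DDIT3 (54.9 and 46.7 TPM), CHAC1 (6.39 and 7.21 TPM), XBP1 (120 and 126 TPM), DNAJB9 (32.7 and 23.0 TPM) and HERPUD1 (74.1 and 62.0 TPM) did not pass the test, and neither did the genes of the preceding sentence.

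MC1568, labelled for HDAC4 and HDAC5, had members of both arms up by adjusted p. Limma called 7 of 31 ATF4 arm genes up and 0 down, and 0 of 16 ER arm genes, where 7.41% of all genes were called up. Fewer members were called with DMSO averaged per concentration. By adjusted p alone 12 of 31 ATF4 arm and 13 of 16 ER arm genes rose, against 28.3% of all genes, and 0 members fell, against 4.92%. The median log2 change was 0.46 over the ATF4 arm, 0.66 over the ER arm and 0.26 over all genes tested.

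GDF15 was at 58.3 TPM at 10 µM and 41.0 TPM at 1 µM of MC1568, against 14, 16.4, 18.1 and 19.6 TPM in DMSO (log2 change 1.48 ± 0.51 SE, adjusted p = 0.0262). SLC7A11 was at 10.9 and 7.30 TPM (1.31 ± 0.31, 0.00209) and ASNS at 108 and 83.7 TPM (1.30 ± 0.36, 0.00703). Each of these genes lay above DMSO at both doses and higher at the high dose. PCK2 (1.26), CHAC1 (1.14), VLDLR (1.10), a lipoprotein receptor, and PSAT1 (1.02) were the other calls, of which CHAC1 was lost on leaving out any 1 DMSO library and GDF15 on leaving out 1 of them. Of the regulators, ATF4 at 438 and 406 TPM, ATF3 at 40.3 and 35.2 TPM, TRIB3 at 48.3 and 48.8 TPM and DDIT3 at 81.4 and 72.1 TPM did not pass (adjusted p = 0.906, 0.768, 0.361 and 0.0524). In the ER arm HSPA5 was at 1912 and 1702 TPM (0.96 ± 0.20, 0.000668), HERPUD1 at 134 and 107 TPM (0.90 ± 0.21, 0.00190) and XBP1 at 210 and 183 TPM (0.77 ± 0.13, 0.0001). DNAJB9 at 31.7 and 22.3 TPM did not pass (0.25, adjusted p = 0.563). XBP1 was at its highest of the screen here, where LAQ824 at 0.5 µM had the lowest.

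**Figure D4:**
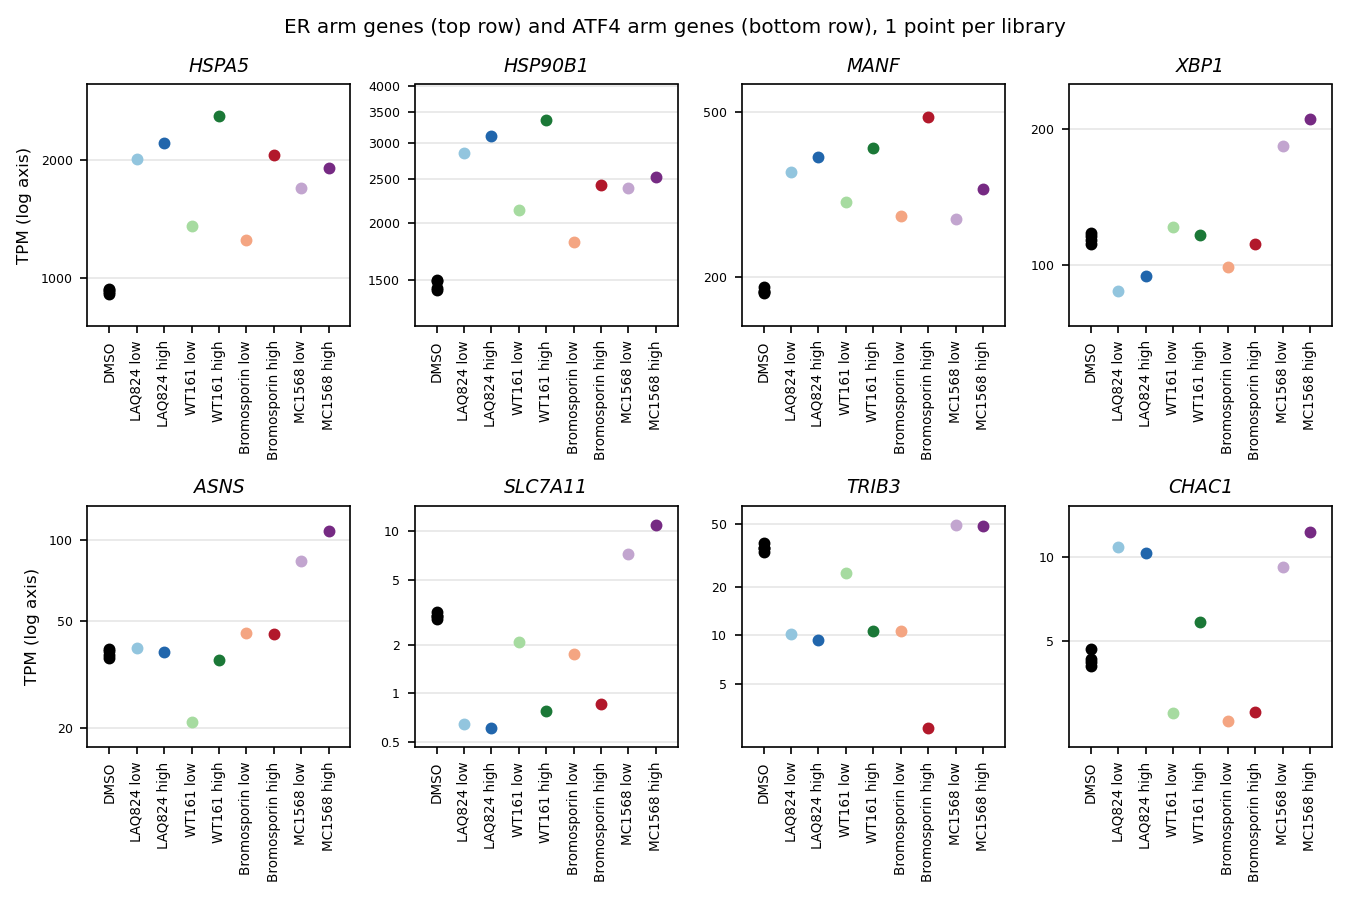
TPM on a log axis, 1 point per library, for 4 ER arm genes (top row) and 4 ATF4 arm genes (bottom row) in the 4 DMSO libraries and in LAQ824, WT161, Bromosporin and MC1568 at low and high dose. HSPA5 lies above DMSO in all 8 treated libraries (1252 to 2594 TPM), while ASNS and SLC7A11 lie above it with MC1568 and SLC7A11 lies below it with the other 3 compounds.

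Cpd50, labelled as a pan-Jumonji inhibitor, raised 4 effectors and importers of the ATF4 arm and none of the other members by 2-fold, where 2.21% of all genes were called up. DDIT4 (chromosome 10, 74033677 to 74035797) was at 844 TPM at 5 µM and 743 TPM at 0.5 µM against 37.4, 39.0, 41.0 and 40.4 TPM in DMSO (log2 change 4.29 ± 0.36 SE, adjusted p = 1.05e-09). VLDLR was at 69.7 and 67.1 TPM against 10.9 to 11.2 TPM (2.52 ± 0.14, 5.23e-13). SLC7A5 was at 198 and 173 TPM against 48.5 to 55.1 TPM (1.81 ± 0.23, 1.96e-06), and STC2 at 531 and 481 TPM against 180 to 202 TPM (1.40 ± 0.20, 1.52e-05). The 2 doses, 10-fold apart, gave nearly the same level in all 4 genes. ATF4 (429 and 411 TPM), ATF3 (43.8 and 46.0 TPM), DDIT3 (39.6 and 32.8 TPM), TRIB3 (40.9 and 37.0 TPM), CHAC1 (5.10 and 3.85 TPM) and ASNS (27.1 and 28.6 TPM) did not pass the test. In the ER arm HSPA5 (788 and 784 TPM), HERPUD1 (69.3 and 72.1 TPM), XBP1 (114 and 112 TPM) and DNAJB9 (21.3 and 21.6 TPM) did not pass either. The same 4 genes were called within the flow cell.

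By role, the ER arm genes that passed by adjusted p alone came from several groups. Under that rule 32.4% of all genes rose and 28.1% fell with LAQ824, and 23.0% and 18.8% with WT161. The shares were 16.5% and 29.5% with Bromosporin and 28.3% and 4.92% with MC1568. Of the 5 chaperones, 4 rose with each of LAQ824, WT161, Bromosporin and MC1568. Of the 3 degradation components, 2 rose with LAQ824 and with Bromosporin and 3 with WT161 and with MC1568. Fewer co-chaperones rose: 1 of 3 with each of LAQ824, Bromosporin and MC1568 and 2 of 3 with WT161. The disulfide isomerases had 1 of 2 up with each of LAQ824, WT161 and Bromosporin and 2 of 2 with MC1568. For the secreted ER factors it was 2 of 2 with each of LAQ824, WT161 and MC1568 and 1 of 2 with Bromosporin. XBP1 fell with LAQ824 and rose with MC1568. Of the 8 regulators of the ATF4 arm, 2 rose and 4 fell with LAQ824, 2 fell with WT161, 2 fell with Bromosporin and 0 passed with MC1568, whereas 4 of 7 synthesis enzymes and 4 of 6 transporters rose with MC1568.

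In the fit over both doses 23 of the 47 tested members were called with no compound, 14 of 31 in the ATF4 arm and 9 of 16 in the ER arm. The other 24 were called with at least 1 compound, as were 40.4% of all genes tested. The tRNA synthetases AARS, GARS, SARS and WARS were all among the 23 without a call. GARS ranged from 71.9 TPM (UNC0638 at 10 µM) to 373 TPM (GSKJ4 at 5 µM) against 158 to 170 TPM in DMSO. Of the folate and serine enzymes, MTHFD2 reached 630 TPM with Bromosporin at 10 µM against 268 to 278 TPM in DMSO, and SHMT2 reached 512 TPM with GSKJ4 at 5 µM against 369 to 383 TPM. PHGDH, which opens serine synthesis, ranged from 54.6 to 133 TPM and PSPH, which closes it, from 36.6 to 76.3 TPM over the treated screen libraries. MTHFD2, SHMT2, PHGDH and PSPH were thus without a call. CEBPB, CEBPG, ATF4, SLC3A2, SLC38A2 and the glutamine transporter SLC1A5 were the other ATF4 arm genes without a call. In the ER arm the genes without a call were XBP1, HYOU1, CALR, DNAJB9, DNAJC3, PDIA4, PDIA6, HERPUD1 and EDEM1. Calreticulin (CALR), a lectin chaperone, reached 2243 TPM with WT161 at 10 µM against 1100 to 1186 TPM in DMSO, and the isomerase PDIA4 1170 TPM with Bromosporin at 10 µM against 629 to 658 TPM. EDEM1, which hands misfolded glycoproteins to degradation, stayed between 31.3 and 55.3 TPM.

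Between the doses of all 20 compounds, limma with compound as a block called 0 of 47 members, and 0% of all genes. At an unadjusted p below 0.05 there were 16 members and 2874 genes. High doses were matched to 0.2% DMSO and low doses to 0.1%, so the step also holds any solvent difference. With the difference between the DMSO concentrations subtracted, the numbers were 0 members and 100 genes. Without that subtraction the smallest adjusted p among members was 0.122, for SLC3A2, the heavy chain shared by several amino acid transporters. SLC3A2 lay higher at the high dose in 16 of 20 compounds by 0.21 ± 0.06 (SE) on the log2 scale. HERPUD1 had the same adjusted p and lay higher in 17 of 20 (0.25 ± 0.07, adjusted p = 0.122). DDIT3 lay higher in 16 of 20 compounds (0.38 ± 0.11, adjusted p = 0.132) and DDIT4 in 19 of 20 (0.38 ± 0.12, adjusted p = 0.147). The largest step of any member was that of PPP1R15A with UNC0638, at 3.62. Steps of the ATF4 arm mean were 0.84 with GSKJ4, 0.67 with Trametinib and 0.42 with EZ-005, and of the ER arm mean 0.45 with Bromosporin, 0.34 with WT161 and -0.32 with UNC0638.

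Genes of the same pathways outside the 48 were followed as a list of 50, of which 45 were tested. Over 900 tests 12 were called up and 13 down, a share to be read against the 1.92% and 1.62% of all gene tests. It was made up of 9 sensors and kinases, 19 other ATF4 targets and 17 other ER genes. By adjusted p alone LAQ824 raised 9 and lowered 2 of the other ER genes, WT161 raised 10 and lowered 0, and Bromosporin raised 8 and lowered 3. Of the other ATF4 targets LAQ824 raised 2 and lowered 7, WT161 raised 1 and lowered 3, and Bromosporin raised 3 and lowered 10. MC1568 raised 6 and lowered 1 of the other ER genes, and UNC0638 lowered 6 of the other ATF4 targets. Of the 9 sensors and kinases LAQ824 raised 4 and lowered 2, and Bromosporin raised 2 and lowered 4. WT161 raised 5 of them, and MC1568 raised 3 and lowered 1. Of all genes 16.5% to 32.4% rose and 4.92% to 29.5% fell by adjusted p alone with LAQ824, WT161, Bromosporin and MC1568, and 18.9% fell with UNC0638. SYVN1, the HRD1 ligase that SEL1L serves, changed by 1.56 with LAQ824 and 1.20 with WT161 on the log2 scale, and WFS1, an ER calcium regulator, by 1.58 and 1.06. ERN1, the IRE1 sensor, changed by 1.23 with LAQ824 and 1.52 with Bromosporin, and ATF5, a factor related to ATF4, by -2.03 with LAQ824 and -1.57 with WT161.

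N1302, an HDAC inhibitor, was set against its 1 DMSO library, so that no test was possible. In the ER arm 4 of 16 genes were at least 2-fold higher and 0 lower, and in the ATF4 arm 6 of 31 were higher and 5 lower, where 11.6% of all genes were higher and 19.3% lower. With median-ratio scaling, which shifted all genes by 0.33, the split over both arms was 14 higher and 4 lower in place of 10 and 5. HSPA5 was at 964 TPM in DMSO and 2268 TPM with N1302, SDF2L1 at 29.1 and 111 TPM, CRELD2 at 48.8 and 117 TPM and MANF at 204 and 485 TPM. CHAC1 was at 3.13 and 15.8 TPM and CEBPB, a partner of ATF4, at 6.80 and 25.8 TPM, while the glutamine transporter SLC38A2 was at 615 and 129 TPM and SLC7A11 at 3.87 and 0.545 TPM. The ER arm genes named here are those at least 2-fold higher. Over the whole ER arm 9 of 16 genes lay above DMSO, and over the ATF4 arm 16 of 31, so both arms went both ways. In the ER arm DNAJC3 differed by -0.87 and EDEM1 by -0.78 on the log2 scale. SESN2, GDF15, SLC7A5 and DDIT4 were the other ATF4 arm genes at least 2-fold higher, and SLC7A1, CEBPG and STC2 the others at least 2-fold lower.

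The DMSO library beside N1302 stood apart from the other RH4-titled DMSO libraries in several members. ATF4 was at 225 TPM there against 376 to 492 TPM in the other 3, SLC38A2 at 615 TPM against 232 to 252 TPM, DNAJB9 at 70.2 TPM against 30.2 to 31.1 TPM and SDF2L1 at 29.1 TPM against 68.6 to 80.7 TPM. Against the mean of both 6 h DMSO libraries the difference in log2(TPM + 1) was 1.29 for HSPA5 in place of 1.23, 1.17 for SDF2L1 in place of 1.89 and -1.54 for SLC38A2 in place of -2.24. Against that mean DDIT4 (0.56 in place of 1.09) and CRELD2 (0.99 in place of 1.25) were no longer 2-fold higher. ATF4 was at 179 TPM, ATF3 at 44.3 TPM, TRIB3 at 17.1 TPM, ASNS at 67.8 TPM, XBP1 at 173 TPM, DNAJB9 at 58.2 TPM and HERPUD1 at 149 TPM with N1302, and none of these was 2-fold from its DMSO library. DDIT3 was at 37.8 and 76.4 TPM, just inside the threshold.

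Entinostat, which the labels give as an inhibitor of HDAC1, HDAC2 and HDAC3, was measured at 3 time points, with 1 library each and no test. At 1 h 0 of 47 members were 2-fold from DMSO, where 0.660% of all genes were higher and 0.581% lower. At 6 h 2 of 31 ATF4 arm genes were higher, where 5.13% of all genes were higher and 0.947% lower, and 0 of 16 ER arm genes. These were ATF3 (28.3 to 81.0 TPM) and GDF15 (13.7 to 31.1 TPM). At 6 h ATF4 was at 376 TPM in DMSO and 341 TPM with entinostat, DDIT3 at 54.9 and 34.9 TPM, TRIB3 at 33.3 and 36.7 TPM, CHAC1 at 3.68 and 3.36 TPM and ASNS at 46.5 and 57.0 TPM. HSPA5 was at 891 and 1107 TPM, XBP1 at 136 and 159 TPM, DNAJB9 at 31.1 and 25.2 TPM and HERPUD1 at 75.3 and 97.6 TPM. At 24 h 7 of 31 ATF4 arm genes were higher and 1 lower, and 0 of 16 ER arm genes, where 16.4% and 6.06% of all genes were. The member counts lay near the shares of all genes, and nothing is read from them about either arm.

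GDF15 was at 13.7 TPM in DMSO and 82.4 TPM with entinostat at 24 h, VLDLR at 10.0 and 37.0 TPM, ATF3 at 29.0 and 81.1 TPM, and SLC38A2 at 252 and 627 TPM. SLC7A11, SLC7A5 and CEBPB were the others at least 2-fold higher, and SHMT2, the mitochondrial serine hydroxymethyltransferase, was lower, at 430 and 190 TPM. SLC38A2 and SLC7A11 thus lay higher after 24 h of entinostat and lower after 6 h of N1302, at different times and in different experiments. ATF4 (413 and 283 TPM), DDIT3 (48.6 and 32.7 TPM), TRIB3 (33.0 and 22.3 TPM) and CHAC1 (4.51 and 3.01 TPM) lay below DMSO at 24 h, and ASNS (44.3 and 62.4 TPM), HSPA5 (730 and 1113 TPM), DNAJB9 (30.2 and 43.4 TPM), HERPUD1 (64.3 and 81.9 TPM) and XBP1 (118 and 127 TPM) above it, each by less than 2-fold. In the DMSO library of the 1 h time point CHAC1 was at 16.4 TPM, against 3.13 to 4.65 TPM in the other 7 DMSO libraries.

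**Figure D5:**
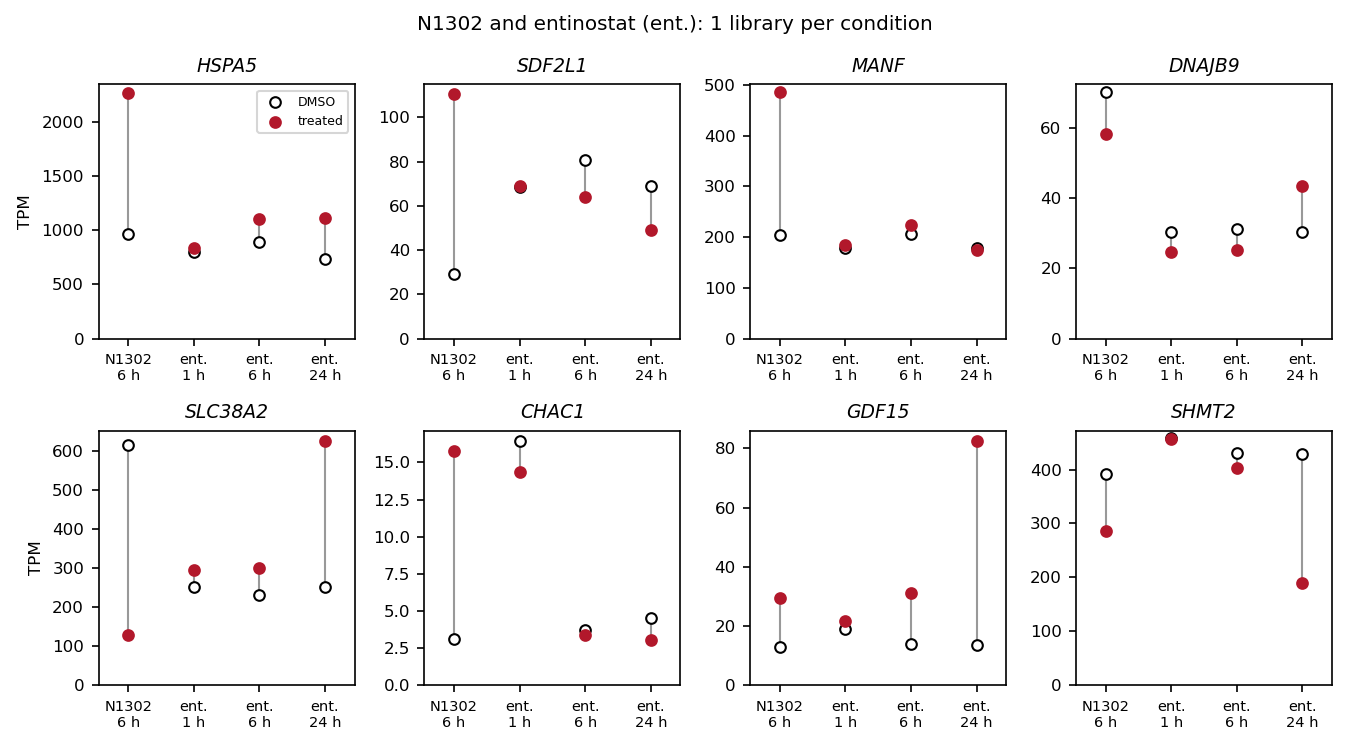
TPM of 4 ER arm genes (top row) and 4 ATF4 arm genes (bottom row) in the RH4-titled libraries, with open circles for DMSO and filled circles for the treated library of the same experiment and time, joined by a line. There is 1 library per condition. HSPA5 is at 2268 TPM with N1302 and at 1113 TPM after 24 h of entinostat, and SLC38A2 is at 129 and 627 TPM in the same libraries.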

How the data were processed

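The 52 libraries held RNA extracted from the cell line after treatment. The authors selected poly-A RNA, sequenced it on Illumina instruments, aligned the reads to hg19 with STAR and quantified genes with RSEM. The values they deposited were TPM, normalised by the authors for transcript length and library size, 1 value per gene and sample, without pooling. Values were analysed as log2(TPM + 1) for genes with TPM of at least 1 in at least 2 samples. Read numbers were recovered as whole multiples of a step per gene (23645 of 23645 genes above 0 within a tolerance of 0.05); in 3 libraries (PFI-2, Bromosporin and Merck60 at the high dose) they were mostly even, so depth may be overstated there. They limit precision for counting error only.

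Groups came from the labels. The flow cell was read from the code that ends the column header of each sample's deposited values. That this code names a flow cell is an inference. For 6 RH4-titled libraries no such code was given. Genes were tested with limma 3.58.1 in R 4.3.3 (lmFit, eBayes with trend, Benjamini-Hochberg over all genes tested, two-sided); Python 3.11.15, numpy 2.4.6 and pandas 2.3.3 did the rest. On simulated data 195 of 200 genes changed 4-fold in 1 compound among 16359 were recovered, with 1 false call. The members, role lists and list of other pathway genes were chosen with earlier results of these data known. Named in each comparison described gene by gene (at 1 h of entinostat only counts are given) are ATF4, ATF3, DDIT3, TRIB3, CHAC1, ASNS, XBP1, HSPA5, DNAJB9 and HERPUD1, and the 3 members of each arm with the largest called change in each direction; further members are named where a role is described, after their values were seen. Alternatives were a pseudocount of 0.1, median-ratio scaling over 6316 genes, other filters (none, or a mean TPM of at least 5), DMSO averaged per concentration, a compound's own samples only, comparison within flow cell, no fold threshold, either dose alone and leaving out each DMSO library. For the dose step, the difference between the DMSO concentrations was also subtracted. Promoter sequences came from RefSeq (GRCh38.p14) and gene coordinates from the tables (hg19); none was converted.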

Additional observations from a re-analysis of the deposited data

How the results depend on the processing

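Of the 40 member calls, 38 held their side of the threshold with a pseudocount of 0.1 and with median-ratio scaling, 37 without a filter, 35 of 35 tested under a minimum mean of 5 TPM, 32 within the flow cell, 40 at the high dose alone, 22 at the low dose alone, 33 with a compound's own samples only and 30 with DMSO averaged per concentration; leaving out 1 DMSO library kept 36 to 37. No direction was reversed. Without the fold threshold the members called were 27 for LAQ824 (13 with it), 25 for MC1568 (7), 13 for UNC0638 (6) and 55 for the other 17 compounds (14), and in total 42 ATF4 arm calls up (22), 23 down (10), and 50 ER arm calls up (7) and 5 down (1). MC1568 had 3 with DMSO averaged and 4 at the low dose alone. UNC0638 had 0 with its own samples only, 16 at the high dose alone and 0 at the low dose alone, and the other 17 compounds 57 and 9; a dose alone is 1 library set against a spread between DMSO libraries that is about counting noise once flow cell is allowed for, so its calls have no replicate check. Under a minimum mean of 5 TPM the ATF4 arm calls down were 6, where fewer genes were tested. Leaving out 1 DMSO library gave 12 to 13 for LAQ824, 5 to 6 for MC1568, 5 for UNC0638, 12 to 13 for the others, and totals of 18 to 19 up and 9 to 10 down (ATF4 arm) and 6 to 7 up and 1 down (ER arm).

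Arm means moved as follows. The ER arm of LAQ824, over both doses, went from 0.63 to 0.71 with median-ratio scaling, that of GSKJ4 at the high dose from -0.11 to -0.0539, that of UNC0638 from -0.30 to -0.14 (-0.28 as a median) and that of N1302 from 0.35 to 0.68. The ATF4 arm of LAQ824 lay around 0 (-0.01), at -0.0761 with a pseudocount of 0.1, 0.0554 with scaling and 0.071 with the stricter filter. The ATF4 arm of GSKJ4 at the high dose (0.91) was 0.95 with that pseudocount, 0.96 with scaling, 0.88 without a filter, 0.88 with the stricter one and 0.79 as a median; that of Trametinib (0.68) was 0.72, 0.65 with the stricter filter and 0.71 as a median. Entinostat at 6 h had 4 members past 2-fold against both 6 h DMSO libraries in place of 2. The cause of these shifts was not tested. With the replicate number as a block, 0 members differed between the DMSO concentrations (7 at an unadjusted p below 0.05, as without it, among 1768 genes against 1548), so the block changed no call. The number marks the flow cell, and the differences between the numbers correlated at 0.072 over genes.

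Each compound had 1 library per dose, and the flow cell with 14 compounds held no DMSO, so a shift of that flow cell and a change shared by its compounds cannot be told apart. Genes of low level, such as NUPR1, can rest on few reads. SLC7A11 held 37 reads with N1302 but 783 after 24 h of entinostat.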
